A study of Rattus norvegicus with 16 samples.

Results

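The erythroid and haem synthesis genes described here are a list of 37 genes chosen by name, of which 34 had an array row naming them alone and were measured among the 17245 genes tested. The list holds transcription regulators of red cell precursors, receptors and factors of iron uptake and globin handling, proteins of the red cell membrane, enzymes and carriers of haem synthesis, and proteins that bind haem or porphyrin. For Zfpm1 and Tspo2 no array row bore the name, and Icam4 was named only on a row shared with Icam5, so these 3 were not analysed here. Members were chosen by function, not by a measured value.

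RNA came from cells that stayed on commercially pure titanium implants after retrieval from the tibiae of male Sprague Dawley rats and a rinse in cold PBS. AT-I implants have nanoscale surface features, and AT-II implants have a microrough surface that lacks them. Each surface was sampled at day 2 and at day 4 after placement, which gave 4 groups of 4 arrays. The implants sat in drilled sites of the tibia, and every rat of every group had the same operation, ketoprofen after it, and both surfaces, 1 in each tibia. A sample pooled the RNA of 2 implants from 1 tibia, and 4 rats were used per day; bone or marrow without an implant was not analysed here. The labels name the cell type only as tibial, give no age, and do not tie replicate numbers to rats, so p-values here measure the spread between these samples.

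Red cells form in bone marrow from precursors in which Gata1, Tal1 and Klf1 switch on the genes of haemoglobin, of the red cell membrane and of haem synthesis. Haem is built from glycine and succinyl-CoA in a chain of enzyme steps that starts and ends in the mitochondrion, begins in erythroid cells with Alas2, and closes with the insertion of iron by Fech. Iron enters the precursor through the transferrin receptor, and the maturing cell then loses its nucleus and, in time, its RNA.

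Values are log2 expression, so that a difference of 1 is a 2-fold change, and they are listed below in the order of replicates 1 to 4 of each group. AT-II day 2 replicates 2 and 3 agreed more closely than any other of 120 pairs of arrays. The SD of their difference over the most variable bright rows was 0.109, against 0.294 in the next pair, and members differed between them by at most 0.17. They were averaged and counted as 1 sample, which left 15 samples, with n = 3 in AT-II day 2 and n = 4 in each other group. Both day 2 arrays numbered 1 stood apart from their groups, for instance in Slc2a1, a glucose transporter (12.25 on AT-I and 11.65 on AT-II, against 10.05 to 10.57 in the other day 2 arrays), and members' medians and calls without them are given below. Precision is limited throughout by the small number of arrays.

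Before the levels, 4 promoter windows show how the binding words of erythroid regulators are placed in front of some members. Klf1 and Epor are an erythroid regulator and an erythroid receptor, Rhd is a red cell membrane protein whose window held several words close to the start, and Hebp1 is 1 of the members that changed between the days. Each window is the 250 bases before the annotated start of the gene, from RefSeq on the GRCr8 build, written 5′ to 3′ on the strand of the gene. Capitals mark the words for which both strands were searched, namely AGATAA on its own, its variant AGATAG, the related form TGATAA and also the form TGATAG, which GATA factors such as Gata1 are known to bind, and the word CACCC, the kind of word that Klf1 binds.
Klf1, chr19:40158652-40158901, strand -: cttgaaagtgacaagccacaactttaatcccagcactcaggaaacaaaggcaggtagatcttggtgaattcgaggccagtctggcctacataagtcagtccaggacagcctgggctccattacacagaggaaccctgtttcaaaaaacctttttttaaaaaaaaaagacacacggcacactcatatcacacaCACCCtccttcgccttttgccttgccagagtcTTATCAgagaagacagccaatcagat
Epor, chr8:28770323-28770572, strand -: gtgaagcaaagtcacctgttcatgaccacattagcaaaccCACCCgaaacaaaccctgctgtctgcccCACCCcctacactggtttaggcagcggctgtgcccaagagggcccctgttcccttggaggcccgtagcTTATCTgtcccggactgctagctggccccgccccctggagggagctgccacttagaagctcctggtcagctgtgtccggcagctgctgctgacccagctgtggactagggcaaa
Rhd, chr5:152370950-152371199, strand +: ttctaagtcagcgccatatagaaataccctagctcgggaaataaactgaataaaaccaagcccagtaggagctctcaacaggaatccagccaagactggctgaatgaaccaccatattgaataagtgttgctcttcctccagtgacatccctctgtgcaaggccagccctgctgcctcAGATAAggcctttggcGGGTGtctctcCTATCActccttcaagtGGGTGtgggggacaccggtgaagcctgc
Hebp1, chr4:169735200-169735449, strand -: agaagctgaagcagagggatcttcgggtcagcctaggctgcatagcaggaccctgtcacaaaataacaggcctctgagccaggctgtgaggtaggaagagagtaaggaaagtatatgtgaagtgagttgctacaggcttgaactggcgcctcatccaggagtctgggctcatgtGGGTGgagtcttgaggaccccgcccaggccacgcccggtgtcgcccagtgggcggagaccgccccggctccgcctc
In the Klf1 window a GATA word began 26 bases before the start, and a CACCC word 58 bases before it. The Epor window held a GATA word 114 bases before the start and CACCC words at 182 and 210 bases. In the Rhd window GATA words lay at 72 and 45 bases and CACCC words, read on the other strand, at 56 and 28 bases. The Hebp1 window held 1 CACCC word at 76 bases and no GATA word. Of the 34 measured members, 26 had a window, and 14 of these (53.8%) held a GATA word, against 28.5% of 27457 genes. A gene counted if any of its annotated windows held the word, so a gene with several windows had more chances. CACCC was present in 15 of 26 (57.7%), against 51.4% of all genes, and both kinds in 9 (34.6%), against 12.9%. These are counts of letters, with no measure of binding, and Nfe2, Lmo2, Ahsp, Slc4a1, Ank1, Cpox, Slc25a37 and Tspo had no entry.

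The main pattern of the members was that nearly all varied together from 1 array to the next, within each of the 4 groups. AT-I day 2 replicate 3 was the lowest of its group in 31 of 34 members, against 27.2% of all genes. AT-II day 2 replicate 4 was lowest in 33 (30.6% of all genes), AT-I day 4 replicate 3 in 33 (37.3%) and AT-II day 4 replicate 2 in 31 (28.1%). At the other end, AT-I day 2 replicate 2 was highest in 28 members (29.5% of all genes), AT-II day 2 replicate 1 in 32 (37.0%) and AT-I day 4 replicate 2 in 33 (33.3%). On AT-II at day 4 replicate 4 was highest in 21 members and replicate 1 in 10. Differences within groups made up a median of 85.7% of a member's variation over the 15 samples, against 61.1% over all genes. The spread of values on an array, as the interquartile range over genes, had its extremes on the same arrays on AT-I: it was lowest in replicate 3 (2.48) and highest in replicate 2 (2.98) at day 2, and likewise at day 4 (2.60 and 3.41). On AT-II at day 2 it was lowest in replicate 1 (3.05), where the members were highest, and at day 4 it was 3.14 in replicate 2, against 3.10 in replicate 3 and 3.42 in replicate 4, the lowest and highest of the group. The part of array spread in the shared order was not tested. In whole-implant RNA, fewer red cell precursors and less RNA per precursor cannot be told apart.

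**Figure D1:**
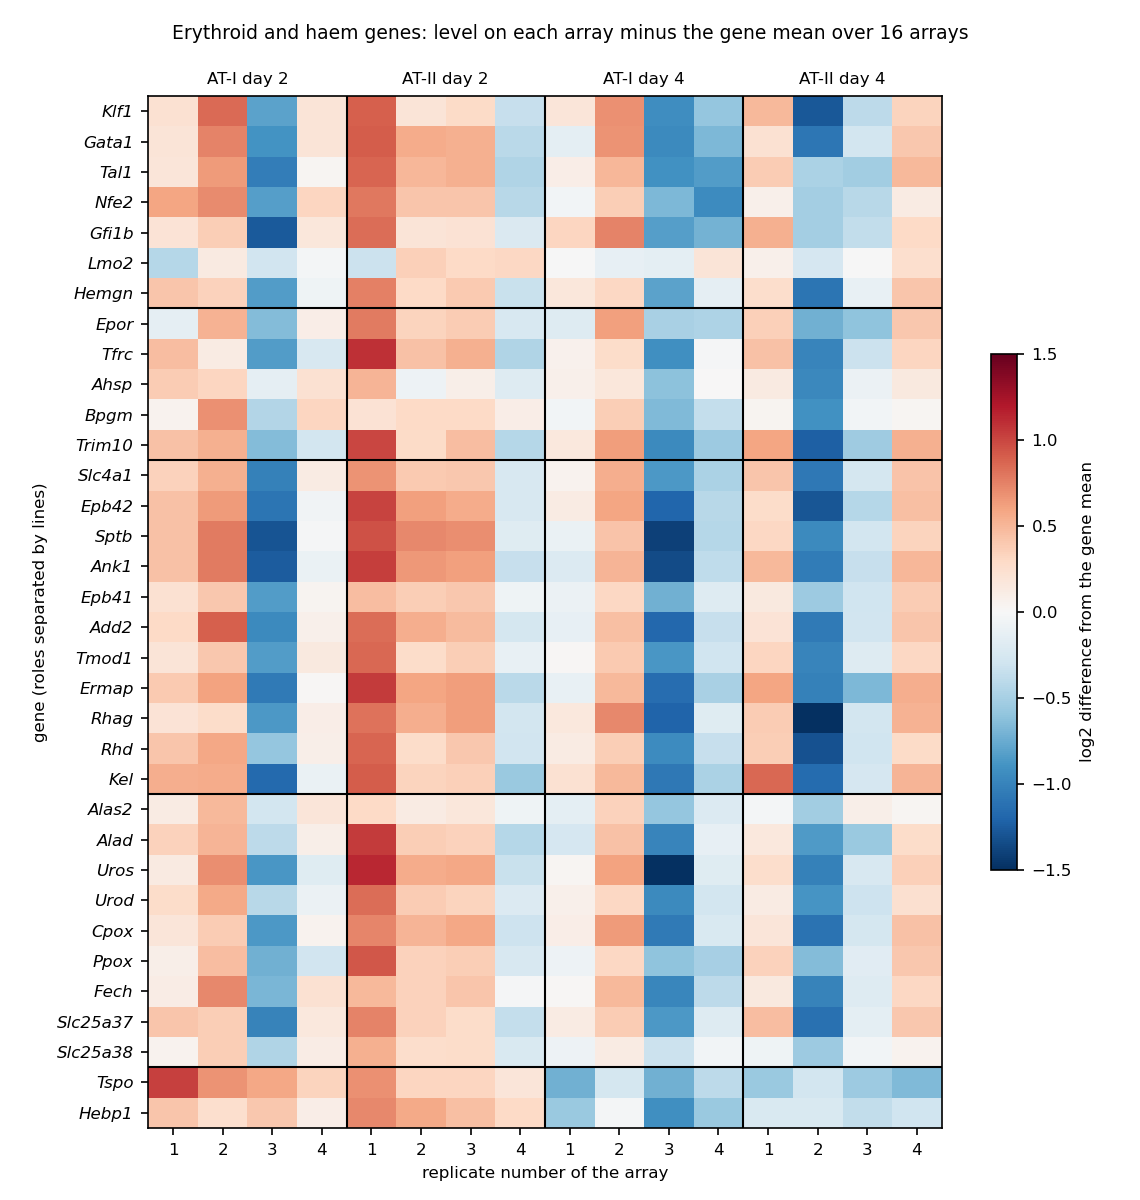
Level of each of the 34 measured members (vertical axis, roles separated by lines) on each of the 16 arrays (horizontal axis, replicate number within each group), as the log2 difference from the mean of that gene over the arrays. The columns of AT-I day 2 replicate 3, AT-II day 2 replicate 4, AT-I day 4 replicate 3 and AT-II day 4 replicate 2 are the lowest of their groups in 31 to 33 members, while Lmo2, Tspo and Hebp1 follow that order only in part.

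Set on a common scale, as the median over members of the log2 level relative to each gene's mean, the samples of a group spanned over 1 unit. AT-I day 2 ran from -0.80 in replicate 3 to 0.55 in replicate 2, and AT-II day 2 from -0.23 in replicate 4 to 0.86 in replicate 1. AT-I day 4 ran from -0.89 in replicate 3 to 0.47 in replicate 2, and AT-II day 4 from -0.97 in replicate 2 to 0.39 in replicate 4. The group means in that order were 0.05 ± 0.60 (SD, n = 4), 0.34 ± 0.55 (n = 3), -0.18 ± 0.58 (n = 4) and -0.13 ± 0.62 (n = 4), so they differed by less than the SD within any group.

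Over the list as a whole, day 4 against day 2 asked how the adherent cells changed over time on each surface. A gene passed where its adjusted p from limma, with Benjamini-Hochberg adjustment over all genes, was under 0.05. On AT-I 2 of 34 members passed, Tspo and Hebp1, both lower at day 4, against 2.66% of all genes called lower and 8.84% called higher (11.5% in either direction). Of the members 32 were below 0, with a median difference of -0.23, against -0.05 over all genes. On AT-II the same 2 genes passed, against 0.203% of all genes called lower and 3.13% called higher (3.33% in either direction), and 34 of 34 members were below 0, with a median of -0.48, against -0.05. Genes called lower on both surfaces numbered 22 of 17245 (0.128%), Tspo and Hebp1 among them. Tspo ranked 21 and Hebp1 62 by size among the 458 genes called lower on AT-I, and they ranked 2 and 6 among the 35 on AT-II.

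Averaged over the surfaces, 2 members passed, both lower, against 4.00% of all genes called lower and 10.2% called higher (14.2% in either direction). There 33 of 34 members were below 0, with a median of -0.33, against -0.06 over all genes. Each rat carried both surfaces and 4 rats were used per day, but the fit counted the 2 tibiae of a rat as separate samples. The p-values and standard errors of the averaged comparison therefore do not measure the spread between rats. For the 32 members other than Tspo and Hebp1, none had an unadjusted p under 0.05 (limma), whereas 4989 of all 17245 genes did. Each of their averaged differences was smaller than that gene's SD within groups. Since the members varied together from array to array, their shared sign is not 32 separate observations, and single arrays moved it. The AT-I median was -0.00 when replicate 3 of the day 4 group was left out and -0.02 without replicate 2 of the day 2 group. It was -0.50 without replicate 3 of the day 2 group and -0.47 without replicate 2 of the day 4 group. The AT-II median was -0.20 without replicate 2 of the day 4 group and -0.24 without replicate 1 of the day 2 group. It was -0.78 without replicate 4 of the day 2 group. With the interquartile range of each array as a covariate, the medians were -0.79 on AT-I, -0.54 on AT-II and -0.66 averaged. All 34 members were then below 0 in each comparison. With both day 2 arrays numbered 1 left out, the medians were -0.16 on AT-I, -0.24 on AT-II and -0.19 averaged, with 26, 33 and 31 of 34 members below 0.

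**Figure D2:**
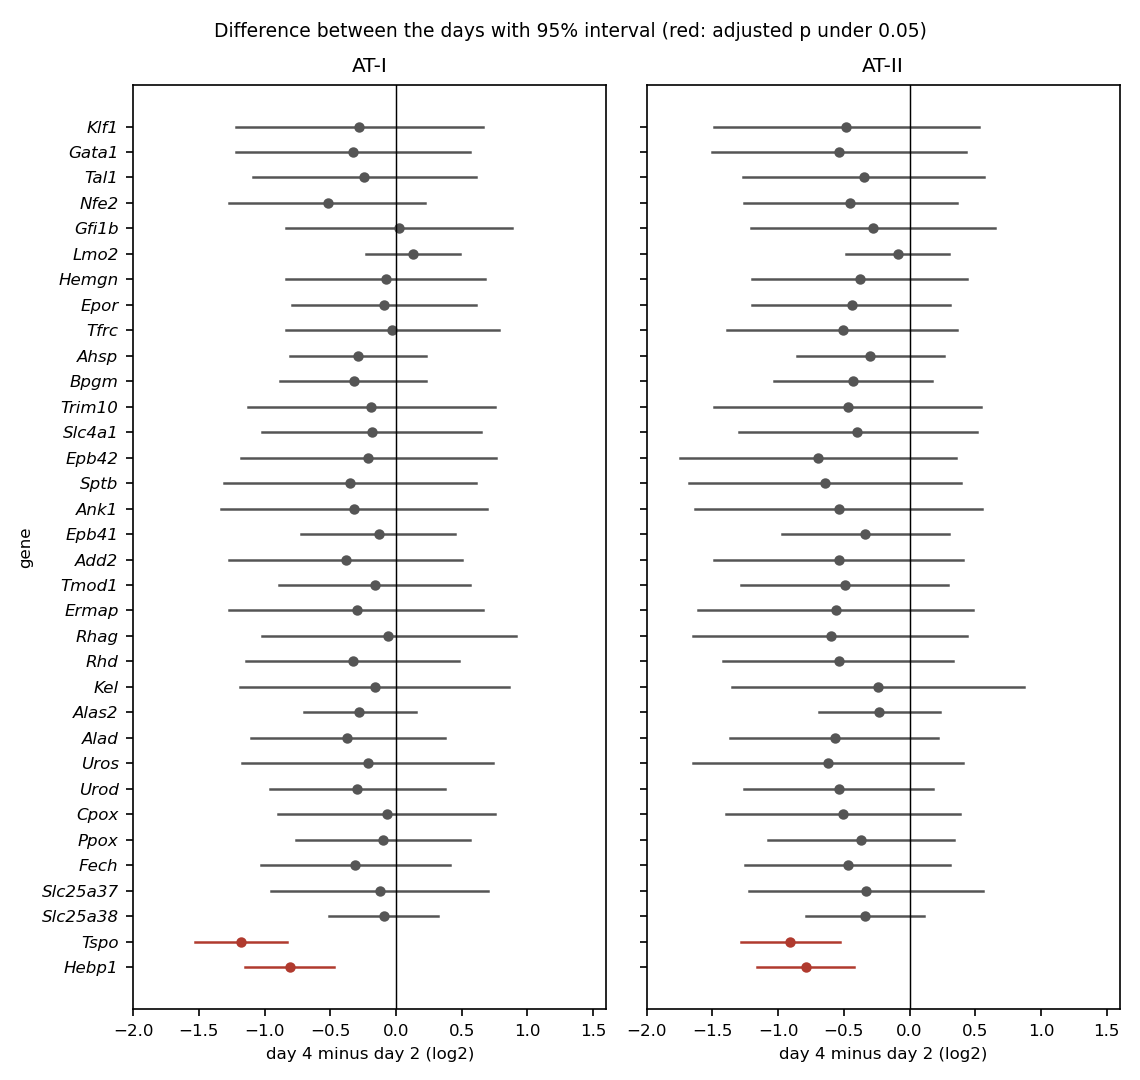
Day 4 minus day 2 on the log2 scale (horizontal axis) for each of the 34 members (vertical axis) on AT-I and on AT-II, with the 95% interval from limma; red marks an adjusted p under 0.05. Only Tspo and Hebp1 are red, on both surfaces, and the intervals of the other 32 members include 0.

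Among the transcription regulators, the sampled levels show this order gene by gene. Klf1, a zinc finger activator of the adult beta globin gene, read 9.09, 9.71, 8.05 and 9.05 on AT-I and 9.75, 9.05, 9.14 and 8.51 on AT-II at day 2, then 9.04, 9.54, 7.92 and 8.28 on AT-I and 9.34, 7.58, 8.46 and 9.19 on AT-II at day 4. Gata1, the zinc finger factor required for red cell maturation, read 8.15, 8.71, 7.06 and 8.15 on AT-I and 8.87, 8.52, 8.49 and 7.56 on AT-II at day 2, then 7.82, 8.64, 7.01 and 7.29 on AT-I and 8.19, 6.88, 7.68 and 8.36 on AT-II at day 4. In both genes the lowest array of each group was 1 of the 4 named above, and the groups overlapped.

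Nfe2, the erythroid subunit of a factor that acts on globin control regions, read 10.59, 10.70, 9.17 and 10.32 on AT-I and 10.78, 10.41, 10.41 and 9.58 on AT-II at day 2, then 9.95, 10.36, 9.32 and 9.05 on AT-I and 10.07, 9.48, 9.58 and 10.11 on AT-II at day 4. Hemgn, a nuclear protein of blood precursors, read 11.56, 11.50, 10.31 and 11.09 on AT-I and 11.91, 11.45, 11.54 and 10.81 on AT-II at day 2, then 11.32, 11.46, 10.35 and 11.01 on AT-I and 11.41, 10.05, 11.04 and 11.57 on AT-II at day 4. The same 4 arrays were lowest in Hemgn, and in Nfe2 except on AT-I at day 4, where replicate 4 was lowest. The groups overlapped in both genes.

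Lmo2, an adaptor that bridges Tal1 and Gata1 in their complex and is also made in endothelial cells, read 8.93, 9.49, 9.07 and 9.33 on AT-I and 9.04, 9.72, 9.66 and 9.67 on AT-II at day 2, then 9.35, 9.24, 9.21 and 9.55 on AT-I and 9.44, 9.11, 9.35 and 9.61 on AT-II at day 4. Its range over all arrays, 0.79, was the smallest of the 34 members, and it did not share their order: on each surface at day 2 replicate 1 was its lowest array, and at day 4 it shared the lowest array but on AT-I not the highest. Tal1, the partner of Lmo2 and Gata1, ran from 6.76 to 8.67, and Gfi1b, a repressor needed for red cell and platelet precursors, from 7.58 to 9.68. Replicate 3 of AT-I day 2 held the lowest Gfi1b level, 7.58, and the other 3 arrays of its group lay between 9.01 and 9.21.

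Averaged over the surfaces, day 4 minus day 2 was -0.38 ± 0.32 (SE) for Klf1, with a 95% interval from -1.07 to 0.31, -0.43 ± 0.31 for Gata1, -0.49 ± 0.26 for Nfe2 (adjusted p = 0.228, limma), -0.23 ± 0.26 for Hemgn and 0.02 ± 0.12 for Lmo2. None of the 7 measured regulators passed an adjusted p of 0.05 in any comparison, and Lmo2 was the member with a difference above 0 in the averaged comparison.

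The second group of members serves growth signals, iron uptake and globin handling. Ahsp, the chaperone that holds free alpha globin, read 12.26, 12.20, 11.74 and 12.10 on AT-I and 12.39, 11.80, 11.96 and 11.68 on AT-II at day 2, then 11.95, 12.05, 11.26 and 11.88 on AT-I and 12.01, 10.91, 11.79 and 12.02 on AT-II at day 4. Tfrc, the transferrin receptor, read 10.96, 10.62, 9.66 and 10.26 on AT-I and 11.59, 10.94, 11.03 and 10.05 on AT-II at day 2, then 10.56, 10.77, 9.58 and 10.48 on AT-I and 10.94, 9.50, 10.17 and 10.82 on AT-II at day 4. AT-II day 4 replicate 2 was the lowest of all 16 arrays in both genes, and the groups overlapped.

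Bpgm, which makes the 2,3-bisphosphoglycerate that loosens oxygen from haemoglobin, read 10.31, 10.94, 9.82 and 10.58 on AT-I and 10.48, 10.56, 10.56 and 10.36 on AT-II at day 2, then 10.22, 10.63, 9.60 and 9.90 on AT-I and 10.30, 9.35, 10.22 and 10.29 on AT-II at day 4. Trim10, a RING finger protein of maturing red cells, read 8.12, 8.21, 7.03 and 7.40 on AT-I and 8.68, 7.96, 8.14 and 7.25 on AT-II at day 2, then 7.84, 8.30, 6.72 and 7.13 on AT-I and 8.27, 6.45, 7.15 and 8.21 on AT-II at day 4. For Bpgm every AT-II day 4 array was below every AT-II day 2 array, which held for 6.51% of all genes on AT-II, while on AT-I the days overlapped. AT-II day 4 replicate 2 stood apart in Bpgm, at 9.35 against 10.22 to 10.30. Epor, the erythropoietin receptor whose promoter is shown above, ran from 6.65 to 8.15.

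Day 4 minus day 2, averaged over the surfaces, was -0.30 ± 0.18 for Ahsp, -0.27 ± 0.28 for Tfrc, -0.38 ± 0.19 for Bpgm (adjusted p = 0.211 with limma, 95% interval from -0.79 to 0.03), -0.33 ± 0.33 for Trim10 and -0.27 ± 0.24 for Epor. None of these 5 genes passed in any comparison.

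The red cell membrane and its skeleton gave 11 measured members. Slc4a1, the band 3 anion exchanger that anchors the skeleton, read 11.86, 12.04, 10.50 and 11.64 on AT-I and 12.19, 11.90, 11.92 and 11.27 on AT-II at day 2, then 11.56, 12.06, 10.65 and 11.04 on AT-I and 11.93, 10.44, 11.25 and 11.94 on AT-II at day 4. Epb41, protein 4.1 at the spectrin junctions, read 11.31, 11.49, 10.25 and 11.12 on AT-I and 11.55, 11.45, 11.49 and 11.02 on AT-II at day 2, then 11.00, 11.39, 10.36 and 10.89 on AT-I and 11.23, 10.54, 10.79 and 11.47 on AT-II at day 4. Rhd, a blood group protein of the Rh complex, read 11.37, 11.53, 10.37 and 11.04 on AT-I and 11.82, 11.23, 11.35 and 10.66 on AT-II at day 2, then 11.07, 11.32, 10.01 and 10.60 on AT-I and 11.32, 9.64, 10.65 and 11.24 on AT-II at day 4. In each of these genes the low array of a group was the same as in Klf1, and the days overlapped on both surfaces.

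Sptb, the beta chain of red cell spectrin, read 9.84, 10.18, 8.10 and 9.38 on AT-I and 10.35, 10.12, 10.10 and 9.22 on AT-II at day 2, then 9.30, 9.83, 8.00 and 8.97 on AT-I and 9.71, 8.45, 9.12 and 9.73 on AT-II at day 4. Add2, the beta chain of adducin that caps actin, read 9.50, 10.10, 8.25 and 9.28 on AT-I and 10.04, 9.75, 9.67 and 8.93 on AT-II at day 2, then 9.08, 9.65, 8.02 and 8.85 on AT-I and 9.41, 8.14, 8.91 and 9.61 on AT-II at day 4. Epb42, protein 4.2 next to band 3, read 10.20, 10.40, 8.66 and 9.71 on AT-I and 10.77, 10.37, 10.31 and 9.52 on AT-II at day 2, then 9.88, 10.35, 8.57 and 9.34 on AT-I and 10.03, 8.48, 9.33 and 10.21 on AT-II at day 4. These 3 had the widest differences between the days in their group, and each still overlapped. The averaged difference was -0.50 ± 0.33 for Sptb, -0.46 ± 0.31 for Add2 (95% interval from -1.11 to 0.19) and -0.45 ± 0.34 for Epb42, with adjusted p = 0.334, 0.330 and 0.383 (limma). The corresponding values were -0.29 ± 0.29 for Slc4a1, -0.24 ± 0.20 for Epb41 and -0.44 ± 0.28 for Rhd.

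Of the other membrane members, Ank1, which joins spectrin to band 3, ran from 7.77 to 10.15 over the arrays, Tmod1, a cap of the short actin filaments, from 7.58 to 9.43, Ermap, a membrane protein of erythroblasts, from 8.63 to 10.82, Rhag, the partner of Rhd, from 8.98 to 11.34, and Kel, a blood group enzyme, from 8.21 to 10.28. Kel had the largest share of its variation within groups, 95.4%. Rhag was low in replicate 3 of AT-I day 2 (9.67), and the other 3 arrays of the group lay between 10.63 and 10.81. Their averaged differences between the days lay between -0.43 (Ank1 and Ermap) and -0.20 (Kel), and none of the 11 membrane members passed in any comparison.

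Haem synthesis was covered from its first erythroid step to its last. Alas2, the erythroid 5-aminolevulinate synthase that sets the pace of the pathway, read 12.31, 12.67, 11.91 and 12.37 on AT-I and 12.48, 12.31, 12.35 and 12.12 on AT-II at day 2, then 12.04, 12.53, 11.60 and 11.98 on AT-I and 12.16, 11.66, 12.27 and 12.21 on AT-II at day 4. Its range over the arrays, 1.07, was among the smallest of the members. Alad, which joins 2 molecules of aminolevulinate, read 9.12, 9.29, 8.38 and 8.87 on AT-I and 9.83, 9.15, 9.12 and 8.35 on AT-II at day 2, then 8.53, 9.22, 7.79 and 8.65 on AT-I and 8.93, 7.93, 8.22 and 9.05 on AT-II at day 4. A dimmer row for Alad ran from 6.93 to 9.10, and both rows had lower means at day 4 on each surface.

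Uros, which closes the porphyrin ring, read 8.27, 8.83, 7.26 and 7.95 on AT-I and 9.26, 8.69, 8.71 and 7.80 on AT-II at day 2, then 8.16, 8.74, 6.60 and 7.95 on AT-I and 8.39, 7.12, 7.89 and 8.49 on AT-II at day 4. Urod, which trims its side chains, read 10.99, 11.28, 10.30 and 10.62 on AT-I and 11.55, 11.09, 11.05 and 10.50 on AT-II at day 2, then 10.79, 11.02, 9.75 and 10.43 on AT-I and 10.83, 9.82, 10.40 and 10.95 on AT-II at day 4. Fech, ferrochelatase, read 10.77, 11.38, 9.97 and 10.89 on AT-I and 11.15, 11.01, 11.07 and 10.64 on AT-II at day 2, then 10.68, 11.14, 9.68 and 10.27 on AT-I and 10.80, 9.66, 10.46 and 10.97 on AT-II at day 4. Uros had the widest range of any member, 2.66, with its lowest level in AT-I day 4 replicate 3. All 3 enzymes overlapped between the days on both surfaces.

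The averaged day difference was -0.26 ± 0.15 for Alas2 (95% interval from -0.57 to 0.06), -0.47 ± 0.25 for Alad, -0.42 ± 0.33 for Uros, -0.42 ± 0.23 for Urod and -0.39 ± 0.25 for Fech. Their adjusted p-values (limma) were 0.267, 0.237, 0.415, 0.242 and 0.314. The later enzymes Cpox and Ppox differed by -0.29 and -0.24, and the mitochondrial iron carrier Slc25a37 and the glycine carrier Slc25a38 by -0.23 and -0.22. None of the 9 genes passed in any comparison. With the interquartile range of each array as a covariate, 8 members passed that had not, namely Alas2, Alad, Uros, Urod, Fech, Bpgm, Sptb and Add2, with averaged differences from -0.92 to -0.44. The share of all genes that passed in this setting is not given here, so the count is not read as particular to the members. The covariate also differed between the days on AT-I, with group means of 2.67 at day 2 and 3.04 at day 4. On AT-II they were 3.22 and 3.26.

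Both members that changed bind haem or porphyrin. Tspo, which sits in the outer membrane of mitochondria, binds porphyrins and cholesterol and is made in many cell types, macrophages among them, read 10.07, 9.72, 9.62 and 9.38 on AT-I and 9.73, 9.36, 9.36 and 9.22 on AT-II at day 2, then 8.32, 8.78, 8.32 and 8.65 on AT-I and 8.49, 8.76, 8.50 and 8.38 on AT-II at day 4. Hebp1, a cytosolic protein that binds haem and porphyrins and is a source of a chemotactic peptide, read 8.36, 8.20, 8.35 and 8.04 on AT-I and 8.66, 8.51, 8.39 and 8.24 on AT-II at day 2, then 7.39, 7.91, 7.02 and 7.39 on AT-I and 7.71, 7.72, 7.57 and 7.64 on AT-II at day 4. On each surface every day 4 array was below every day 2 array in both genes. Of the 4 arrays that were low in most members, AT-II day 2 replicate 4 and AT-I day 4 replicate 3 were the lowest of their groups here too, whereas AT-II day 4 replicate 2 was the highest of its group in both genes. Such separation was found in 4.01% of all genes on AT-I, in 6.51% on AT-II and in 0.812% on both.

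Tspo fell by 1.18 ± 0.16 (SE) on the log2 scale on AT-I (2.27-fold, adjusted p = 2.72e-04, limma), from 9.70 ± 0.29 (SD, n = 4) to 8.52 ± 0.23 (n = 4). On AT-II it fell by 0.91 ± 0.18 (1.87-fold, adjusted p = 0.00837), from 9.44 ± 0.26 (n = 3) to 8.53 ± 0.16 (n = 4). Averaged over the surfaces the difference was -1.04 ± 0.12, with a 95% interval from -1.30 to -0.79 (adjusted p = 2.55e-05, lower in 8 of 8 day 4 arrays than in any day 2 array of the same surface). These 8 arrays came from 4 rats, each with both surfaces. The highest Tspo level was in AT-I day 2 replicate 1, 1 of the arrays that stood apart, and without AT-II day 2 replicate 1 the call on AT-II ended (-0.76, adjusted p = 0.0786).

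Hebp1 fell by 0.81 ± 0.16 on AT-I (1.75-fold, adjusted p = 0.0039, limma), from 8.24 ± 0.15 (SD, n = 4) to 7.43 ± 0.37 (n = 4). On AT-II it fell by 0.79 ± 0.17 (1.73-fold, adjusted p = 0.0173), from 8.45 ± 0.21 (n = 3) to 7.66 ± 0.07 (n = 4). The averaged difference was -0.80 ± 0.12, with an interval from -1.05 to -0.55 (adjusted p = 2.23e-04). The call on AT-II ended when replicate 1 of its day 2 group was left out (-0.69, adjusted p = 0.129), when replicates 2 and 3 of that group were (-0.79, adjusted p = 0.0728), when replicate 3 of its day 4 group was (-0.76, adjusted p = 0.0554), and when both day 2 arrays numbered 1 were (-0.69, adjusted p = 0.121). Within groups lay 12.6% of the variation of Tspo and 18.9% of that of Hebp1, the lowest shares among the members, of which the next was 78.3% (Bpgm).

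**Figure D3:**
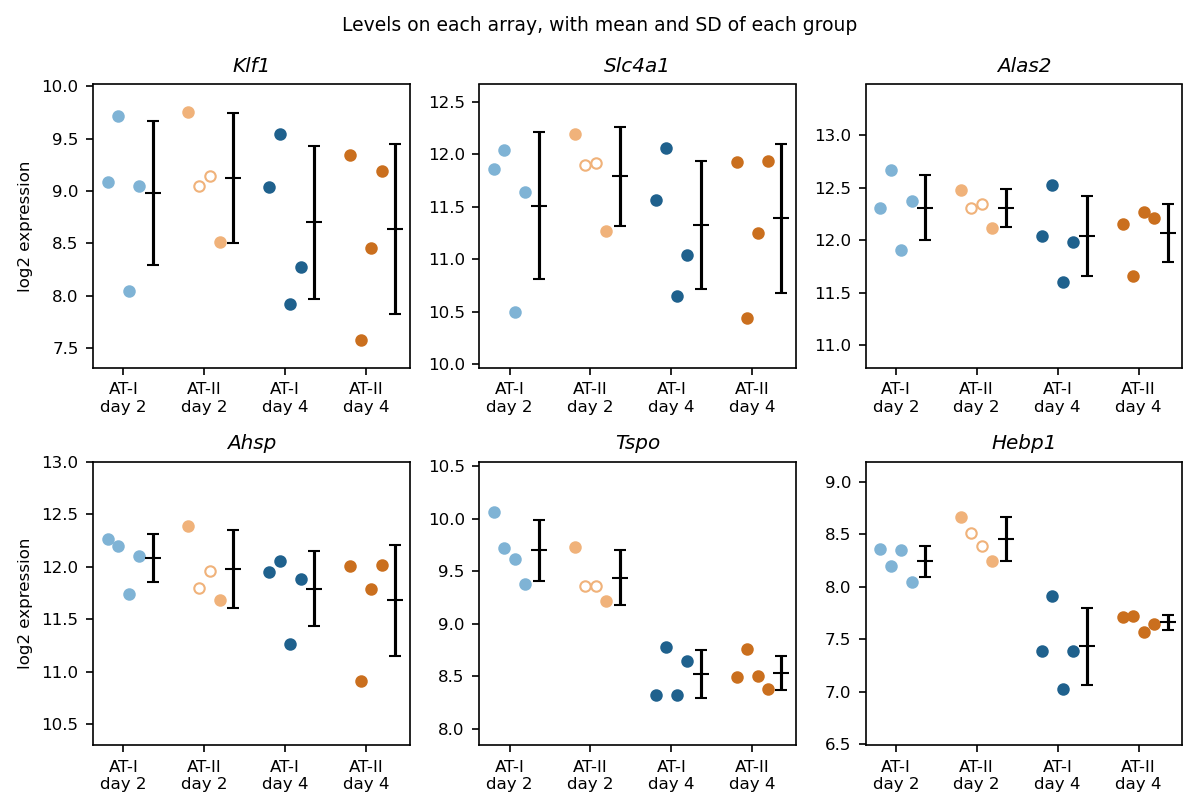
Log2 expression (vertical axis, the same span in each panel) of Klf1, Slc4a1, Alas2, Ahsp, Tspo and Hebp1 on each array of the 4 groups (horizontal axis); open points are AT-II day 2 replicates 2 and 3, counted as 1 sample, and the bar beside each group is its mean with the SD over samples. The days overlap in the first 4 genes, while Tspo and Hebp1 are lower in every day 4 array on both surfaces.

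Setting AT-I against AT-II asked whether the nanoscale surface altered these genes. At day 2, 0 of 34 members passed (limma, with 0 at an unadjusted p under 0.05), and the share of all genes called was 0%, although 4701 genes had an unadjusted p under 0.05. The median of AT-I minus AT-II over members was -0.28 (all genes -0.09), with 31 below 0, but it was 0.57 with 34 above 0 when the interquartile range of each array was a covariate, -0.03 when AT-I day 2 replicate 3 was left out and -0.08 when replicate 1 of AT-II day 2 was. With both day 2 arrays numbered 1 left out it was -0.14, with 27 below 0. Centring the arrays on their medians gave -0.14 with 29 below 0 (all genes 0.05). Repeated quantile normalization gave -0.10 with 25 below 0 (all genes -0.03). Array spread and surface went together at day 2: the interquartile range was 2.48 to 2.98 on AT-I and 3.05 to 3.41 on AT-II. Tspo was 0.26 ± 0.18 higher on AT-I at that day (95% interval from -0.12 to 0.64) and Hebp1 differed by -0.21 ± 0.17 (from -0.58 to 0.15), neither past the threshold.

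At day 4, 0 of 34 members passed (0 at an unadjusted p under 0.05; 0% of all genes called, 687 of them at an unadjusted p under 0.05), and the median was -0.04 (all genes -0.03), with a sign that turned when arrays were centred on their medians (0.05), were quantile normalized again (0.03) or had their interquartile range as a covariate (0.28). Intervals were wide enough to hold sizeable differences either way, for example from -0.88 to 0.99 for Klf1, from -0.90 to 0.77 for Slc4a1 and from -0.46 to 0.39 for Alas2. For Tspo the interval was narrower, from -0.37 to 0.33. The difference between the time courses on AT-I and AT-II also had 0 of 34 members past the threshold (0 at an unadjusted p under 0.05; 0% of all genes called, 707 of them at an unadjusted p under 0.05). Its median over members was 0.22 (all genes 0.03), with 30 above 0, but -0.25 with 31 below 0 when the interquartile range of each array was a covariate, 0.08 with both day 2 arrays numbered 1 left out, and -0.07 without replicate 3 of AT-I day 2. Tspo fell by 1.18 on AT-I and by 0.91 on AT-II, and the difference between these falls was -0.28 ± 0.24, with an interval from -0.79 to 0.24. For Hebp1 it was -0.02 ± 0.24. Neither fall was shown to differ between the surfaces.

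Other genes of the red cell and of iron handling give the surroundings of these results. None of 32 other erythroid genes passed in any comparison (limma), with medians between the days of -0.15 on AT-I, -0.29 on AT-II and -0.22 averaged. In the same order 2, 0 and 4 of them had an unadjusted p under 0.05 (limma), against 4809, 2237 and 4989 of all 17245 genes. Of 8 globin genes, Hbg1 passed on AT-I (-0.65 ± 0.18, adjusted p = 0.0328, limma), where 2.66% of all genes were called lower. Its mean level there was 5.81 at day 2 and 5.16 at day 4. It did not pass on AT-II (adjusted p = 0.857, limma) or averaged over the surfaces (0.0667). Hbb, the adult beta globin, lay between 13.25 and 13.70 on all arrays, close to the highest value in the data, 14. Hbq1, a theta globin at lower levels, followed the members, at 8.61 in AT-I day 2 replicate 3, 8.48 in AT-I day 4 replicate 3 and 8.19 in AT-II day 4 replicate 2, the lowest array of each of these groups. Other globins did so only in part or not at all. Hba-a3 was lowest of its group in replicate 1 on both surfaces at day 2 (12.07 and 12.22), and in AT-II day 4 replicate 2 (12.23). In AT-I day 2 replicate 3 Hbg1 read 6.05 and Hbe1 6.93, against 5.33 and 6.72 in replicate 2. Hbe1 was lowest of its group in AT-I day 4 replicate 3 (6.37) and AT-II day 4 replicate 2 (6.21).

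Among 35 other haem and iron genes, 3 rose and 3 fell at day 4 averaged over the surfaces (limma), where 10.2% of all genes rose and 4.00% fell, so that these counts are not read as particular to the list. Steap3, a ferric reductase of endosomes, rose by 0.65 ± 0.14 (adjusted p = 0.00444), Heph, a ferroxidase of iron export, by 0.67 ± 0.17 (0.0168) and Ireb2, an RNA-binding regulator of iron uptake and storage, by 0.28 ± 0.09 (0.0471). The falls were those of Tmem14c, a mitochondrial porphyrin transporter of red cell precursors (-0.48 ± 0.12, 0.0109), Hmox1, which breaks haem down (-0.70 ± 0.19, 0.0219), and Slc11a1, a metal transporter of phagocytes (-0.41 ± 0.10, 0.0111). On AT-I alone, Steap3 (0.74), Heph (0.95), Ireb2 (0.45) and Cp, the plasma ferroxidase (0.80), rose and Slc11a1 (-0.52) fell (8.84% and 2.66% of all genes). On AT-II 0 of 35 passed, with 2 at an unadjusted p under 0.05 (limma), against 2237 of all 17245 genes.

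Marker lists of other marrow cells were set beside the members. Over the 15 samples the mean of the 32 other erythroid genes was 8.73 in AT-I day 2 replicate 3, 8.79 in AT-I day 4 replicate 3 and 8.84 in AT-II day 4 replicate 2, and 9.08 to 9.93 in the other 12. The mean of 14 proliferation genes was 9.10, 9.01 and 9.04 in those 3 samples and 9.17 to 10.09 in the others. The B lineage list (5 genes) was at 7.39, 7.65 and 7.54 in them and at 7.81 to 8.52 elsewhere, and the neutrophil list (16 genes) at 10.16, 10.22 and 10.33, with values of 9.97 to 11.00 elsewhere. So the erythroid, proliferation and B lineage lists were lowest on the arrays where the members were lowest. The neutrophil list was the lowest of its group in AT-I day 2 replicate 3, but not in the 2 day 4 samples. The mast cell and basophil list (12 genes) read 7.05, 6.79 and 6.69 in the 3 samples, the lowest of their groups, and 7.04 to 7.83 elsewhere. The 7.04 was in AT-II day 2 replicate 1, where the members were highest (0.86). The endothelial list read 7.11, 7.31 and 7.66 in the 3 samples and 7.24 to 7.82 elsewhere. In AT-II day 4 replicate 2 it was the highest of its group. The megakaryocyte and platelet list (12 genes) read 8.67, 9.10 and 9.33 in the 3 samples and 8.62 to 10.14 elsewhere, and the macrophage list (14 genes) 8.95, 8.52 and 9.0 against 8.07 to 9.08. The 12 bone matrix genes were lowest of their day in the 2 day 4 samples (10.36 and 10.40, against 10.42 to 11.00) but not in the day 2 sample (8.05, against 7.11 to 8.88). The part of cell makeup in the members' spread was not tested.

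**Figure D4:**
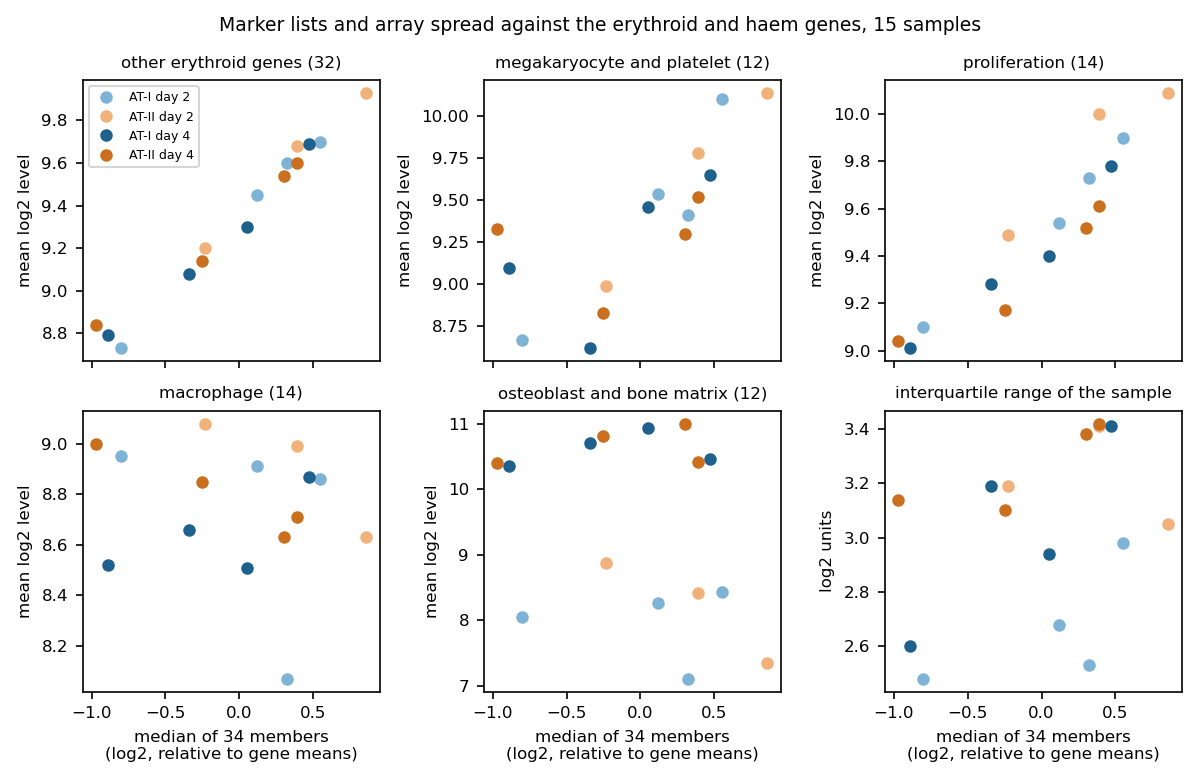
Mean log2 level of 5 marker lists and the interquartile range of the sample (vertical axes) against the median level of the 34 members relative to their gene means (horizontal axis, log2) for the 15 samples, coloured by group. The 32 other erythroid genes and the 14 proliferation genes are lowest in the 3 samples where the members are lowest, at -0.97, -0.89 and -0.80, while bone matrix genes separate by day.

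Beside the falls of Tspo and Hebp1, other lists also changed between the days. In the averaged comparison 10.2% of all genes were called higher and 4.00% lower (limma). All 12 bone matrix genes rose in it, with a median of 2.61. Of 16 neutrophil markers, Csf3r (-0.80 ± 0.15, adjusted p = 0.00201, limma) and Cebpe (-0.55 ± 0.16, 0.0355) fell and Mmp9 (0.48 ± 0.13, 0.0174) rose, with 14 of 16 below 0. Of 14 macrophage markers, Cd14 fell (-0.56 ± 0.11, 0.00219), and the list's median was -0.04. Aurka and Pcna fell among 14 proliferation genes. None of 12 megakaryocyte and platelet markers, 9 endothelial, 9 T cell or 5 B lineage markers passed. In that order 2, 1, 1 and 2 had an unadjusted p under 0.05 (limma), against 4989 of all 17245 genes. Of 10 stem and progenitor markers Hoxa9 rose (0.51 ± 0.08) and Spink2 fell (-0.46 ± 0.09), and of 12 mast cell and basophil markers Mcpt1 rose (0.74 ± 0.24). The mean level of the macrophage list was 8.70 ± 0.42 (SD, n = 4) at day 2 and 8.64 ± 0.17 (n = 4) at day 4 on AT-I, and 8.90 ± 0.24 (n = 3) and 8.80 ± 0.17 (n = 4) on AT-II. The part of these cells in the falls was not tested.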

How the data were processed

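Expression was read on 16 Rat Gene 1.1 ST arrays from Affymetrix, according to the labels. The authors used RMA in Expression Console (Affymetrix) to make the deposited log2 values, as the submitters' processing notes record. RMA implies base 2, which the notes do not state; software versions, filters and genome build: not given in the sources used here. Values ran from 1.82 to 14.

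Of 29214 rows, 18644 named 1 gene in the platform annotation, 962 several and 9608 none. Gene identifiers matched the GRCr8 table for 18460 rows and changed 0 symbols. The brightest row stood for each of 879 genes with more than 1 row. Alad had 2 rows, and Rhag had 2 rows with identical values. RMA is meant to make arrays comparable in distribution, but it gives no count of molecules. Over the genes tested, the samples still differed, with interquartile ranges from 2.485 to 3.421 and medians from 6.565 to 6.916. Levels were compared between samples, not between genes.

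limma 3.58.1 in R 4.3.3 fitted group means over 15 samples with no covariate (lmFit and eBayes, two-sided, 11 residual and 4.44 prior degrees of freedom), with Benjamini-Hochberg adjusted p-values over all 17245 genes and a threshold of 0.05. The test was checked on simulated data with independent noise for each gene, a setting that lacks the shared order of the members. Promoters came from RefSeq on GRCr8. The members, the lists of other genes, the averaging of the near-identical arrays and the alternatives were chosen with earlier results of these data known. Named genes were, in each role, members past the threshold, the 3 with the highest mean and the 3 with the largest averaged day difference. From the other lists they were genes past the threshold. Slc2a1, Hbb, Hbq1, Hba-a3 and Hbe1 were named outside this rule to show their levels. Another 29 settings were run, of which 17 left out 1 array or the averaged pair and 1, added after the data were seen, left out both day 2 arrays numbered 1. Python 3.11.15, numpy 2.4.6, pandas 2.3.3 and matplotlib 3.10.9 were used for tables and figures.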

Additional observations from a re-analysis of the deposited data

Results flagged for a closer look

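Of 141 values of genes or lists in groups of 4 samples, 102 of them of members, 5 held an array far from the rest of its group. Chance gives about 5% of such values. Gfi1b stood at 7.58 in AT-I day 2 replicate 3 and at 9.01 to 9.21 in the others, and Rhag in the same array at 9.67 (the others 10.63 to 10.81). Bpgm was at 9.35 in replicate 2 of AT-II day 4, and its other 3 arrays lay between 10.22 and 10.30. The mean of the macrophage list was 8.07 in AT-I day 2 replicate 1, against 8.86 to 8.95, and that of the B lineage list 7.65 in AT-I day 4 replicate 3, against 8.16 to 8.25. AT-II day 2, with 3 samples, was not examined in this way.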

How the results depend on the processing

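Tspo and Hebp1 kept their direction in every setting run. On AT-I and averaged over the surfaces both passed in all settings (29 and 28), Tspo with differences from -1.34 to -1.06 and from -1.18 to -0.91, and Hebp1 from -0.98 to -0.67 and from -0.93 to -0.73. On AT-II Tspo passed in 28 of 29 (-1.01 to -0.76, highest adjusted p = 0.0786, limma) and Hebp1 in 25 of 29 (-0.90 to -0.69, highest adjusted p = 0.129). Leaving out 1 array or the averaged pair, the number of members past the threshold on AT-II ran from 0 to 2, and with both day 2 arrays numbered 1 left out it was 1; fewer samples entered these fits. Members' medians, leaving out 1 array or the averaged pair, ran from -0.59 to -0.03 between the surfaces at day 2, from -0.31 to 0.17 at day 4, from -0.50 to -0.00 between the days on AT-I, from -0.78 to -0.20 on AT-II, from -0.48 to -0.19 averaged, and from -0.07 to 0.51 for the difference between the time courses.

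With the interquartile range of each array as a covariate, the day 2 surface median was 0.57 and 10 members passed between the days averaged, adding Bpgm (-0.62), Sptb (-0.92), Add2 (-0.86), Alas2 (-0.44), Alad (-0.76), Uros (-0.85), Urod (-0.68) and Fech (-0.73). The share of all genes that passed in this setting is not given here, and the cause was not tested. At day 2 this covariate and the surface went together. On AT-I its group mean also differed between the days (2.67 at day 2 and 3.04 at day 4). Median centring of the arrays took the all-gene median of the averaged day comparison from -0.06 to -0.20 and that of the members to -0.46. Whether replicate numbers pair the samples is not known from the labels: deviations of same-numbered samples correlated over genes at 0.64, 0.51, -0.26 and 0.15 for numbers 1 to 4 at day 2 and at 0.13, -0.34, 0.47 and 0.20 at day 4, so not every pair was above 0.1, and the reported comparisons use no pairing. With the number as a replicate block (random within day), 2 members passed in each comparison of days and 0 between surfaces, with medians of -0.22 and -0.04 between surfaces, -0.23, -0.40 and -0.30 between the days, and 0.16 for the difference between the time courses. The setting that used only the groups compared gives no value for the averaged comparison or the difference between time courses.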
